A study of Mus musculus with 12 samples.

Results

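Large peritoneal macrophages live in the peritoneal cavity of mice, and the comparison described here asked how the loss of Tim4 changed those that had taken up tumour material. Tim4, encoded by Timd4, is a receptor that binds phosphatidylserine, the lipid that dying cells show on their surface, and tethers such cells so that they can be engulfed by partner receptors. Resident peritoneal macrophages carry Tim4 at a high level and clear dying cells with it. Material taken up in this way is broken down in lysosomes, its cholesterol and amino acids have to be handled, and some of its protein can be shown to T cells on MHC class I, which is called cross-presentation.

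The comparison was between the 3 libraries of Tim4KO ID8 and the 3 libraries of WT ID8, 6 of the 12 libraries in the series. Both groups came from female mice, wild type or lacking Tim4, that were injected at 8 weeks of age into the peritoneal cavity with ID8ZGO, a form of the mouse ovarian tumour line ID8 that made the fluorescent protein ZsGreen and ovalbumin. The macrophages were collected after 24 h and sorted as high for F4/80, low for MHC class II and positive for ZsGreen. The other 6 libraries, 3 of each genotype, were from naive mice and were sorted without the ZsGreen gate. They entered the model fit to share its estimate of spread and are set beside the challenged cells where named. Elsewhere, WT and Tim4KO libraries are the challenged ones, and their values are listed in the order of their numbers, 1 to 3. How the Tim4KO allele was made and the time of day of collection were not given in the sources used here. Nothing in the labels says that the libraries of a group came from separate animals, so the p-values measure only the spread between these libraries. In RNA from sorted bulk samples, fewer cells of a type and less RNA per cell cannot be told apart.

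Total counts were 8642994 to 23170244 in WT ID8 and 10665584 to 17495710 in Tim4KO ID8. Levels are given as CPM, counts scaled to a common library size with TMM factors, which equalize the bulk of genes between libraries. Genes of large peritoneal macrophages were present throughout: the transcription factor Gata6 lay between 165 and 194 CPM, and Adgre1, which encodes F4/80, between 3932 and 6299 CPM. Of the 13 epithelial and mesothelial markers, whose summed CPM was 1.6 to 7.2 over the 6 libraries, Epcam, Krt8, Krt19 and Msln were at 0 in WT ID8 3 and Tim4KO ID8 1, while Krt7 reached 1.85 CPM. The summed CPM of 9 neutrophil markers was 93.3, 96.8 and 76 (WT) and 110, 106.4 and 99.8 (Tim4KO), with no overlap. Most of it came from Csf3r (60.1 to 82.9 CPM in WT and 80.2 to 81.8 CPM in Tim4KO). Retnlg was higher in each Tim4KO library (0.601 to 3.91 CPM in WT and 5.01 to 11.9 CPM in Tim4KO). For every other member, Csf3r included, the groups overlapped. Cebpe was highest in WT ID8 3, at 5.43 CPM beside 1.44 to 1.94 CPM in Tim4KO, and Ly6g was at or under 0.23 CPM. The summed CPM of 8 mast cell markers also did not overlap between the groups, at 2.53 to 6.19 in WT and 6.69 to 9.53 in Tim4KO. In these lists 0 members were called, and their part in the results was not tested.

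One wild-type library, WT ID8 3, stood apart. Its summed CPM over 40 genes of S phase and mitosis was 5531, while WT ID8 1 and 2 had 1068 and 1096 CPM and Tim4KO ID8 had 1186 to 1683 CPM. Reads in 1946 olfactory and vomeronasal receptor genes, a measure of background, came to 6.25 CPM in it and to between 41.9 and 361.7 CPM in the remaining challenged libraries. It was the deepest of the 6 and detected the fewest genes. WT ID8 3 was singled out for its cell-cycle transcripts with results of these data known. The main results are given with all libraries and without it, and the adjusted p-values without it do not account for that choice.

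**Figure D1:**
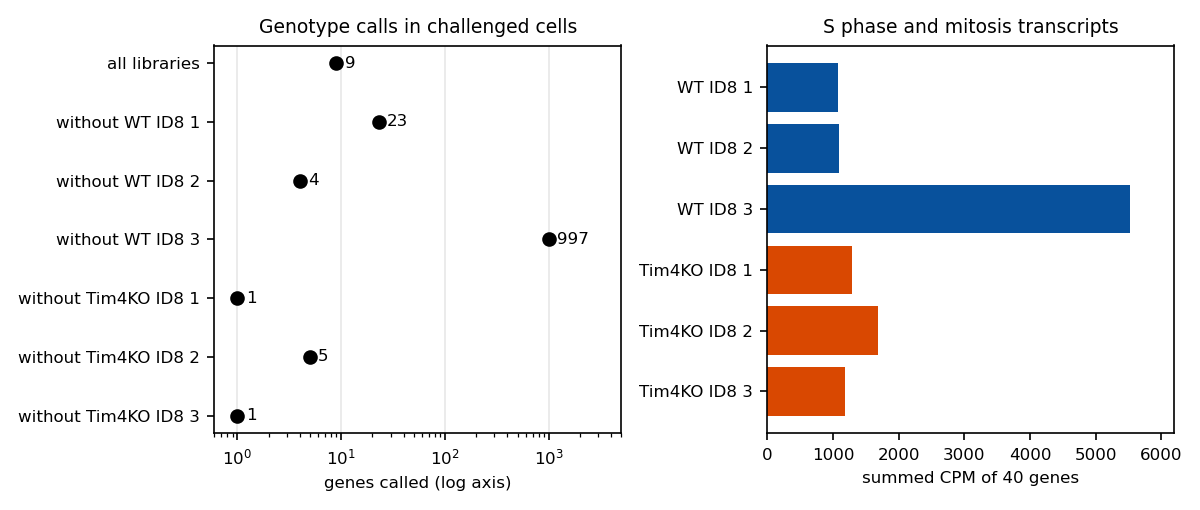
Left: number of genes called between Tim4KO ID8 and WT ID8 (log axis), with all libraries and with each challenged library left out in turn. Right: summed CPM of 40 S phase and mitosis genes in each challenged library. The count is 9 with all libraries and 997 without WT ID8 3, the library whose summed cell-cycle level is 5531 CPM.

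With all libraries, Tim4KO ID8 differed from WT ID8 in 9 genes: Timd4, Ofcc1, Basp1, Lcn2, Bcl2a1a, Id1, Tdo2 and Hsp90aa1 fell and Dbp rose. These were 0.0565% of the 15943 genes tested with edgeR at a Benjamini-Hochberg adjusted p under 0.05 (0.00627% called higher and 0.0502% called lower), and 1935 genes had an unadjusted p under 0.05. DESeq2 on the same libraries called 265 genes, and edgeR without a filter on low counts called 264. In all 9 genes, WT ID8 3 lay with the other WT libraries, on the far side of every Tim4KO library. Over all tested genes, 15.6% had groups that did not overlap across the 6 libraries.

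Timd4 (ENSMUSG00000055546), the targeted gene, was at 1115, 1452 and 882 CPM in the WT libraries and at 1.92, 1.85 and 1.38 CPM in the Tim4KO libraries. All Tim4KO libraries were low, with 20 to 25 counts each in the challenged ones and 55 to 128 counts in the naive ones. The log2 change was -9.40 ± 0.25 (SE; adjusted p = 3.94e-12), and -9.56 ± 0.23 without WT ID8 3.

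Basp1 (ENSMUSG00000045763) encodes a membrane-bound protein that also acts as a transcriptional corepressor. It was at 38.8, 59.8 and 47.3 CPM in the WT libraries and at 14.4, 15 and 13.5 CPM in the Tim4KO libraries. The groups did not overlap, and the log2 change was -1.77 ± 0.26 (adjusted p = 0.02). Lcn2 (ENSMUSG00000026822) encodes lipocalin 2, a secreted protein that binds bacterial iron carriers, and was at 48.2, 116 and 87.5 CPM in the WT libraries and at 28.4, 23.5 and 25 CPM in the Tim4KO libraries, a log2 change of -1.71 ± 0.25 (adjusted p = 0.0203). The WT libraries were spread more widely than the Tim4KO libraries, and the lowest of them was still above all of Tim4KO. In naive cells both genes were low in both genotypes, with means in WT and Tim4KO of 3.36 and 2.71 CPM for Basp1 and 2.3 and 1.74 CPM for Lcn2.

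Id1 (ENSMUSG00000042745) encodes an inhibitor of basic helix-loop-helix factors and is a textbook target of BMP signalling. It was at 28.8, 43.4 and 30.03 CPM in the WT libraries and at 10.1, 14.2 and 9.34 CPM in the Tim4KO libraries, a log2 change of -1.61 ± 0.23 (adjusted p = 0.0172). In naive cells it averaged 8.3 CPM in WT and 8.34 CPM in Tim4KO. Hsp90aa1 (ENSMUSG00000021270), the stress-induced HSP90 chaperone, was at 609, 603 and 327 CPM in the WT libraries and at 187, 208 and 195 CPM in the Tim4KO libraries. WT ID8 3 lay between the other WT libraries and Tim4KO, and the log2 change was -1.38 ± 0.19 (adjusted p = 0.0159), or -1.62 ± 0.15 without WT ID8 3 (adjusted p = 1.13e-07).

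Bcl2a1a (ENSMUSG00000102037) encodes a BCL2-family survival protein. It was at 11.3, 13.3 and 12.7 CPM in the WT libraries and at 4.07, 4.34 and 3.34 CPM in the Tim4KO libraries, a log2 change of -1.67 ± 0.22 (adjusted p = 0.0105). The value is uncertain because mice carry near-identical copies between which reads may be split. Of these, Bcl2a1d had a log2 change of -1.14 (adjusted p = 0.161) and Bcl2a1b of -0.30 (adjusted p = 0.619).

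Tdo2 (ENSMUSG00000028011), which encodes a dioxygenase that opens the ring of tryptophan, was at 5.52, 5.24 and 10.9 CPM in the WT libraries and at 1.31, 1.75 and 1.61 CPM in the Tim4KO libraries. The log2 change was -2.22 ± 0.35 (adjusted p = 0.0233). Ofcc1 (ENSMUSG00000047094), named after orofacial clefting, was at 10.2, 8.42 and 13.9 CPM in the WT libraries and at 2.84, 2.77 and 2.94 CPM in the Tim4KO libraries, a log2 change of -1.93 ± 0.28 (adjusted p = 0.0172). For both genes WT ID8 3 was the highest library, and the changes without it were -1.78 for Tdo2 and -1.70 for Ofcc1.

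Dbp (ENSMUSG00000059824) encodes a circadian transcription factor. It was at 0.23, 0.0859 and 0.319 CPM in WT, from 2, 1 and 7 counts, and at 6.38, 3.97 and 4.73 CPM in Tim4KO, from 83, 43 and 82 counts. The groups did not overlap, and the log2 change was 4.39 ± 0.64 (adjusted p = 0.0245), a size that the few wild-type counts leave imprecise. Without WT ID8 3 it was 5.00 ± 1.20 (adjusted p = 0.054). Dbp shares exonic bases with Sphk2 on the opposite strand, and whether the counting used strand was not given in the sources used here.

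Of the 9 genes, Timd4 was called whichever of the 6 challenged libraries was left out, and Dbp in none of these fits. Without Tim4KO ID8 1 or without Tim4KO ID8 3, Timd4 was the one gene called, and the highest adjusted p among the other 8 was 0.178, for Lcn2. With only the 2 challenged groups fitted, Hsp90aa1, Id1, Lcn2, Ofcc1 and Tdo2 were not called, and limma voom did not call Dbp (adjusted p = 0.392) or Tdo2.

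**Figure D2:**
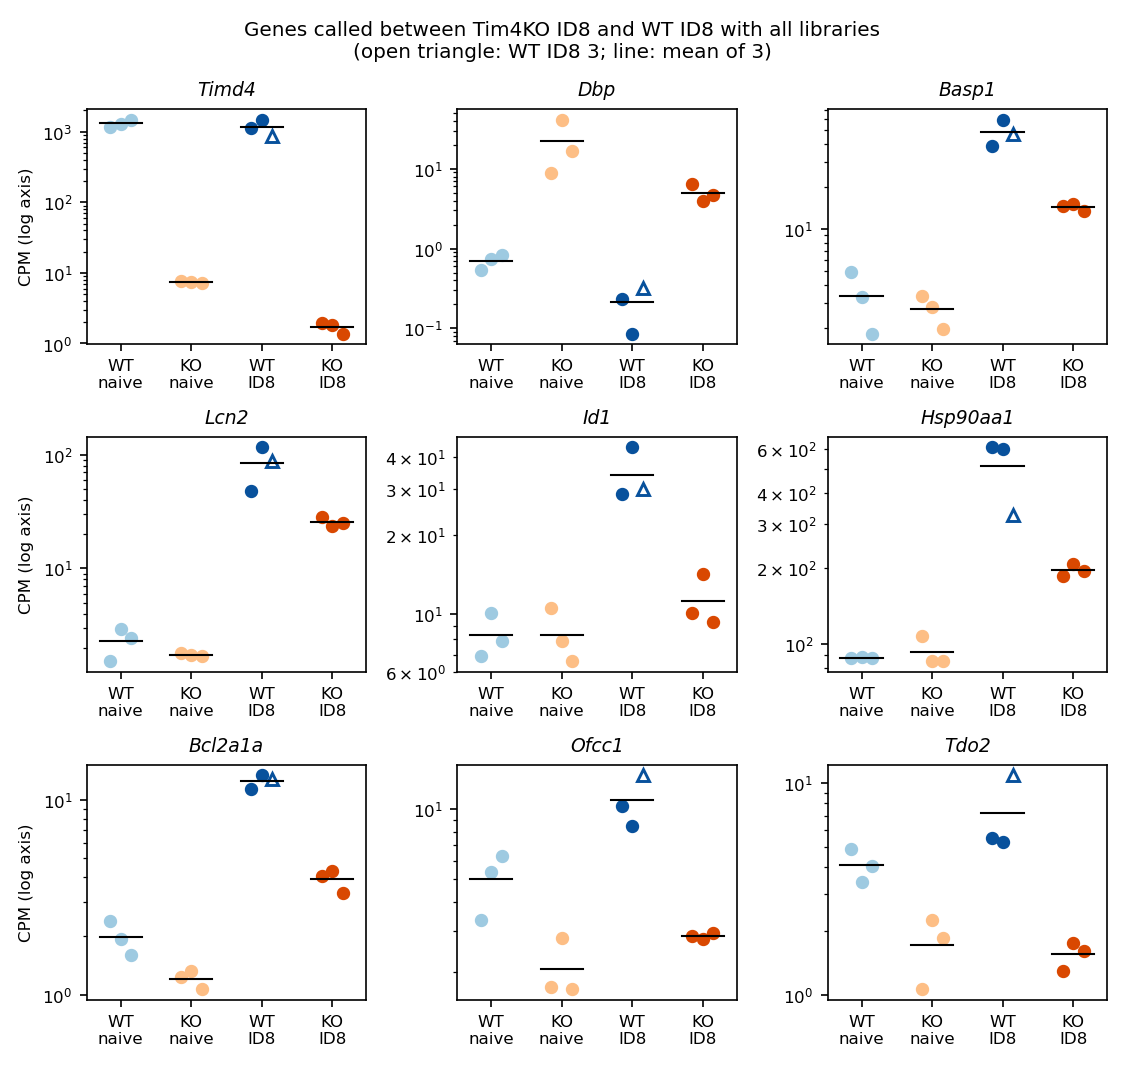
CPM (log axis) of the 9 genes called with all libraries, in each of the 12 libraries by group (points, libraries; open triangle, WT ID8 3; line, mean of 3). In each panel the 3 WT ID8 libraries do not overlap the 3 Tim4KO ID8 libraries, as for Basp1, with 38.8 to 59.8 CPM against 13.5 to 15 CPM.

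Without WT ID8 3, 997 of 17374 tested genes were called (5.74%): 390 were higher in Tim4KO (2.24%) and 607 lower (3.49%), so that 39.1% of the calls were higher. Chemokines and cytokines, heat shock chaperones and enzymes of arginine and itaconate metabolism were among the lower genes, and clock genes and class II loading genes were among the higher ones. The split between directions moved with the settings: 51.8% of calls were higher with upper-quartile scaling, 48% with genes of at least 50 mean counts and 49.9% without a filter on low counts. The count rested on WT ID8 1 and 2 as the only challenged wild-type libraries. It was 168 when WT ID8 2 was also left out, 347 without Tim4KO ID8 3, 571 without Tim4KO ID8 1, and 660 without Tim4KO ID8 2. Of the 997 genes, 101 were called under each of 15 alternatives, 49 higher and 52 lower. Of the 76 named genes among the 997, 30 were called whichever further challenged library was left out, 39 in 1 to 4 of the 5 fits, and 7 in 0 of them: Cd74, Coro1a, Creld2, Dnajb9, Dock2, Hk2 and Nr1d2. Adgrf5, Bbc3, Bmf, Bmpr1a, Cd274, Ddx58, Eng, Insig1, Ndufs3, Serpinb2, Spp1 and Ucp2 were called in 1 of the 5.

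WT ID8 3, which this fit did not use, lay nearer to the mean of Tim4KO than to the mean of WT ID8 1 and 2 for 88% of the 997 genes and for 57.5% of the genes not called. It lay on the wild-type side of the Tim4KO mean for 53.5% of the 997, close to the 54.1% of the genes not called. Over all 6 libraries, 374 of the 997 genes (37.5%) had groups that did not overlap, beside 14.9% of all genes tested. The 997 had been called on these libraries other than WT ID8 3, so a share above that of all genes followed from the selection. The position of WT ID8 3 is given with the genes described below.

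**Figure D3:**
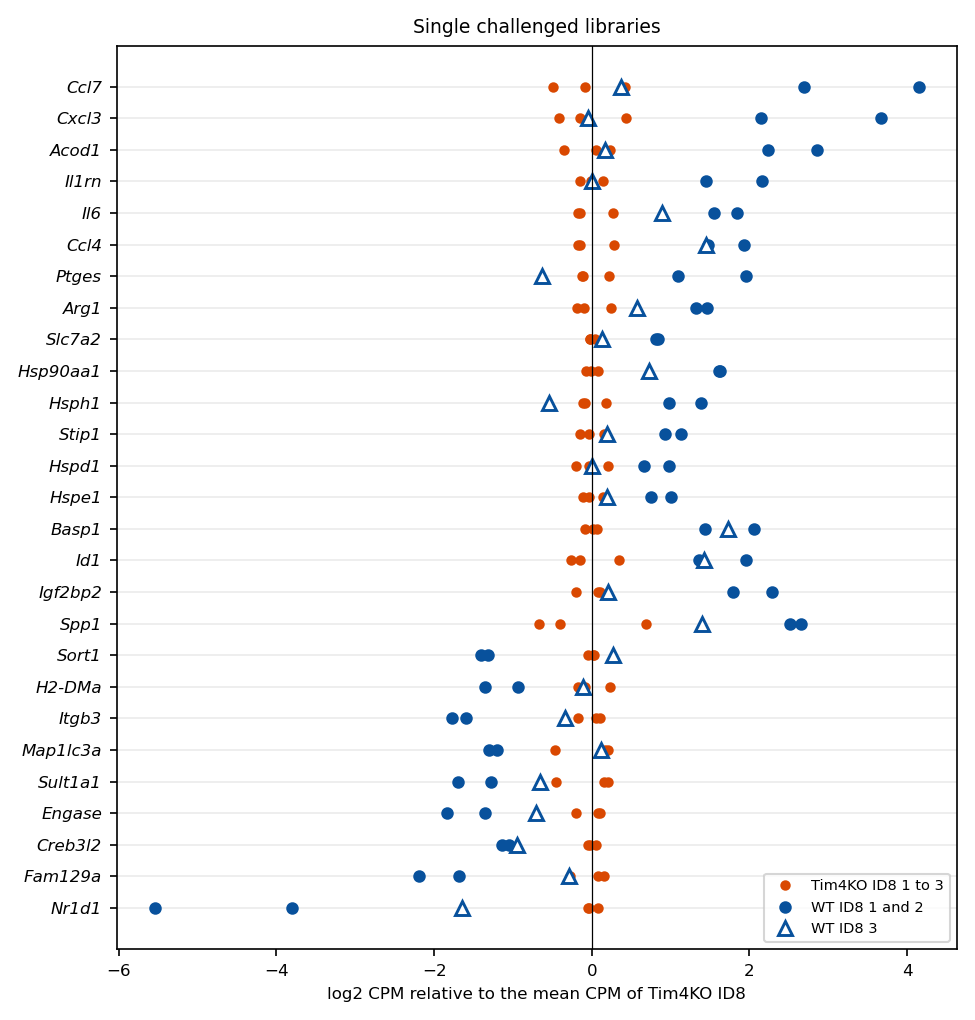
log2 CPM of single challenged libraries relative to the mean CPM of Tim4KO ID8 for 27 genes (orange, Tim4KO ID8 1 to 3; blue, WT ID8 1 and 2; open triangles, WT ID8 3). WT ID8 3 sits with the other WT libraries for Basp1 and Id1, and within the Tim4KO range for Cxcl3, Il1rn and Hspd1.

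Inflammatory mediators were lower in Tim4KO than in WT ID8 1 and 2. Of 37 tested cytokines, chemokines and NF-kB feedback genes, 10 were called lower and 0 higher without WT ID8 3. Over all genes, 3.49% were called lower in that fit and 2.24% higher. Of the 37, 36 had a negative log2 change. Their median was -0.59 without WT ID8 3 and -0.40 with it, beside 0.01 over all genes tested in either fit, and 0 were called with all libraries. Over the 6 libraries, 6 of the 37 were lower with no overlap and 0 higher, beside 8.56% and 7.06% of all genes. Of all genes called lower without WT ID8 3, 40% did not overlap. Of the 10 called here, Ccl4, Il6 and Tnf did not overlap. Ccl7, Cxcl3, Il1rn and Ptgs2 had WT ID8 3 within the Tim4KO range, and Ccl24, Il1b and Ptges had it below. Leaving out 1 further challenged library left 6 to 10 called lower.

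Among the chemokines, Ccl7, which attracts monocytes, was at 43.6, 119 and 8.72 CPM in the WT libraries and at 4.77, 6.37 and 9.05 CPM in the Tim4KO libraries. WT ID8 3 fell within the Tim4KO range, and the log2 change without it was -3.60 ± 0.54 (adjusted p = 0.0102). Cxcl3, a neutrophil attractant, showed the same arrangement, with 13.6, 39.3 and 2.97 CPM (WT) and 2.31, 4.15 and 2.77 CPM (Tim4KO). Ccl4, which attracts monocytes and T cells, was at 10.7, 14.7 and 10.5 CPM in the WT libraries and at 3.46, 3.41 and 4.67 CPM in the Tim4KO libraries, with no overlap. The change in Ccl4 was -1.63 ± 0.35 with all libraries (adjusted p = 0.108) and -1.72 ± 0.33 without WT ID8 3 (adjusted p = 0.00267).

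The cytokine Il6 also kept WT ID8 3 above Tim4KO. It was at 27.9, 34.1 and 17.6 CPM in the WT libraries and at 8.38, 8.58 and 11.5 CPM in the Tim4KO libraries, and the log2 change without WT ID8 3 was -1.71 ± 0.26 (adjusted p = 0.000661). Il1rn, the antagonist of the interleukin-1 receptor, was at 24.5, 40.3 and 8.99 CPM in the WT libraries and at 8.15, 8.95 and 9.91 CPM in the Tim4KO libraries. Ptges, a prostaglandin E synthase, had 144, 261 and 43.5 CPM (WT) and 62.3, 78.1 and 61.5 CPM (Tim4KO). For Il1rn WT ID8 3 fell among the Tim4KO libraries and for Ptges below them, and the log2 changes without it were -1.86 (adjusted p = 0.000145) and -1.60 (adjusted p = 0.000695). Spp1 (osteopontin), a secreted phosphoprotein, was at 77.5, 70.3 and 32.2 CPM in the WT libraries and at 7.69, 19.8 and 9.28 CPM in the Tim4KO libraries, with no overlap. Its change was -2.30 ± 0.53 with all libraries (adjusted p = 0.176) and -2.62 ± 0.47 without WT ID8 3 (adjusted p = 0.0188).

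Interferon response genes had mostly negative changes, with a share of calls in the fit without WT ID8 3 near the 5.74% of all genes. That count moved with the settings: 1 to 17 were called lower under the alternatives that kept the other challenged libraries. Of 37 tested, 36 had a negative log2 change without WT ID8 3 and the median was -0.66 (-0.45 with all libraries), but 2 were called lower and 0 higher. The 2 were Cxcl10, a chemokine for activated T cells, with WT ID8 3 within the Tim4KO range, and Ddx58, which encodes the RNA sensor RIG-I. Ddx58 was at 76.3, 89.6 and 54.9 CPM in the WT libraries and at 52.7, 48.8 and 52.4 CPM in the Tim4KO libraries, a log2 change of -0.69 ± 0.19 without WT ID8 3 (adjusted p = 0.0312). Over the 6 libraries, 10 of the 37 were lower in Tim4KO with no overlap, beside 8.56% of all genes. Ifit1, an interferon-induced RNA-binding protein gene, had 40.1, 58.2 and 16.1 CPM (WT) and 14, 13.9 and 16.1 CPM (Tim4KO), and did not pass the test (adjusted p = 0.137 without WT ID8 3).

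Several genes of arginine, tryptophan and itaconate metabolism were lower in Tim4KO. Over all genes, 3.49% were called lower without WT ID8 3 and 2.24% higher. Of 14 tested without WT ID8 3, 5 were called lower (Acod1, Arg1, Odc1, Slc7a2 and Tdo2) and 0 higher, 8 had a negative log2 change, and 4 or 5 were called lower when a further library was left out. The median log2 change was -0.27 without WT ID8 3, with a range of -0.70 to 0.06 over its alternatives, and -0.41 with all libraries, and Tdo2 was the one member called with all libraries. Acod1, which makes itaconate, was at 70.2, 108 and 16.7 CPM in the WT libraries and at 11.7, 17.5 and 15.4 CPM in the Tim4KO libraries. WT ID8 3 was within the Tim4KO range, and the log2 change without it was -2.60 ± 0.21 (adjusted p = 3.07e-07).

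Arg1, arginase, which splits arginine into ornithine and urea, was at 3353, 3690 and 1980 CPM in the WT libraries and at 1175, 1583 and 1249 CPM in the Tim4KO libraries. Slc7a2, a transporter that brings arginine into the cell, had 482, 491 and 299 CPM (WT) and 269.6, 269 and 283 CPM (Tim4KO). Neither overlapped over the 6 libraries. Of the 13 list members tested with all libraries, 3 were lower with no overlap and 0 higher. Over all genes these shares were 8.56% and 7.06%. The log2 change of Arg1 was -1.17 ± 0.24 with all libraries (adjusted p = 0.0932) and -1.40 ± 0.19 without WT ID8 3 (adjusted p = 6.68e-05). That of Slc7a2 was -0.63 ± 0.16 (adjusted p = 0.179) and -0.83 ± 0.15 (adjusted p = 0.00108). Odc1, which turns ornithine into putrescine, had WT ID8 3 below all Tim4KO libraries, at 42.3 CPM beside 43.6 to 50.8 CPM.

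Without WT ID8 3, heat shock chaperones had the highest share of calls among the 21 pathway lists. Of 28 tested, 14 were called lower and 0 higher in that fit, beside 3.49% and 2.24% of all genes. Their median log2 change was -0.50. With all libraries 1 of the 28 was called, Hsp90aa1, a lower share than 1 of 11 for the Dbp-phase clock genes, and the median was -0.40. The 14 were cytosolic HSP90 with its cochaperones and partners (Hsp90aa1, Hsp90ab1, Stip1, Fkbp4, Chordc1, Ppid, Cacybp), the mitochondrial chaperones Hspd1, Hspe1 and Hspa9, the CCT folding chamber subunits Cct2, Cct3 and Tcp1, and Hsph1, an HSP110. Over the 6 libraries, 7 of the 28 were lower with no overlap and 1 higher, beside 8.56% and 7.06% of all genes. Of all genes called lower without WT ID8 3, 40% did not overlap. Of the 14 chaperones, 6 did not overlap, 3 had WT ID8 3 within the Tim4KO range and 5 had it below. When a further library was left out, 2 to 14 were called lower.

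Hsph1 was at 116, 153 and 40.3 CPM in the WT libraries and at 55, 66.6 and 54 CPM in the Tim4KO libraries. WT ID8 3 was the lowest library, and the log2 change was -0.81 ± 0.38 with all libraries (adjusted p = 0.426) and -1.20 ± 0.17 without it (adjusted p = 0.000116). Stip1, which links HSP70 to HSP90, was at 242, 278 and 145 CPM in the WT libraries and at 124, 142 and 115 CPM in the Tim4KO libraries, with no overlap and a change of -1.04 ± 0.19 without WT ID8 3 (adjusted p = 0.00206). Hspa8, the constitutive HSP70, was not called, at 976 to 2154 CPM in WT and 1178 to 1764 CPM in Tim4KO, groups that overlapped. The inducible HSP70 genes Hspa1a and Hspa1b had log2 changes of 0.83 and 0.57 without WT ID8 3 (adjusted p = 0.153 and 0.449).

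Heat shock genes are classically switched on by HSF1, which binds repeats of a short GAA motif. In the RefSeq promoter table (GRCm38.p6), 22 of the 28 chaperone genes had an entry. Of these, 12 (54.5%) held TTCNNGAA or GAANNTTC within the 250 bases before the start, on either strand and with overlapping matches allowed, beside 14.5% of all genes with an entry and 12.5% of the tested ones. Among the chaperones with an entry, 5 of 10 called lower held them and 7 of 12 not called. The promoters of 2 genes called lower that hold them are shown on the gene's strand with the match in capitals. Hsph1 is read from chr5:149636337-149636586 on the minus strand, and Fkbp4, an HSP90 cochaperone, from chr6:128438657-128438906 on the minus strand.
Hsph1: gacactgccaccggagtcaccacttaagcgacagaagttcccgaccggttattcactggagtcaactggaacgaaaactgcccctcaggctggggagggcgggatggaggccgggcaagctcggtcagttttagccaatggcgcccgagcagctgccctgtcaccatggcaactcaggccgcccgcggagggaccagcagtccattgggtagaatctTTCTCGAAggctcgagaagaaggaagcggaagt
Fkbp4: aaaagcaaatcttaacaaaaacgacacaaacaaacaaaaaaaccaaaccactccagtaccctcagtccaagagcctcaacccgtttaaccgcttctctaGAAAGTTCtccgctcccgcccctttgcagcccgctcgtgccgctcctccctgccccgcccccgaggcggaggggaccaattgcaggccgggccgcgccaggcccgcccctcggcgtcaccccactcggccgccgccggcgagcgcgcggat

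Clock genes had the highest positive median of the 21 lists. The clock runs on a loop in which CLOCK and BMAL1 drive E-box genes, among them Dbp, Tef, the PER and CRY repressors and the REV-ERB repressors Nr1d1 and Nr1d2. Of 11 tested genes that peak together with Dbp, 7 were higher in Tim4KO with no overlap over the 6 libraries (Dbp, Tef, Nr1d1, Nr1d2, Per1, Per3 and Cry2), beside 7.06% of all genes. Dbp was the one called with all libraries, and Nr1d1 and Nr1d2 were called without WT ID8 3. Over all genes, 0.00627% and 2.24% were called higher in these fits. The median log2 change of the 11 was 1.63 with all libraries and 1.45 without WT ID8 3. The summed CPM of the 11 was 48.2, 44.1 and 67.6 (WT) and 190.6, 188.3 and 190 (Tim4KO).

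Nr1d1 was at 3.45, 1.03 and 15.4 CPM in the WT libraries and at 46.9, 46.4 and 50.9 CPM in the Tim4KO libraries. The 3 Tim4KO libraries were close to each other and all above the wild-type ones, and the log2 change was 2.74 ± 0.71 with all libraries (adjusted p = 0.246) and 4.51 ± 0.52 without WT ID8 3 (adjusted p = 0.0019). Nr1d1 shares exonic bases with Thra on the opposite strand, which was also called higher without WT ID8 3 (log2 change 1.32, adjusted p = 0.000301). Nr1d2 had 12.7, 6.1 and 27.4 CPM (WT) and 65.5, 61.1 and 57.6 CPM (Tim4KO), also without overlap, but its call was lost with each further library left out (adjusted p = 0.0632 to 0.298). Tef was at 7.48, 10.6 and 10.9 CPM in the WT libraries and at 35.2, 35.4 and 34.9 CPM in the Tim4KO libraries, with a log2 change of 1.85 ± 0.33 with all libraries that missed the threshold (adjusted p = 0.0802).

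Among 5 tested clock genes of the opposite phase, Cry1 was called lower without WT ID8 3 and 0 were called higher. Over all genes, 3.49% were called lower in that fit and 2.24% higher. Cry1, a repressor that peaks late in the loop, was at 10.1, 19.8 and 2.1 CPM in the WT libraries and at 2.15, 2.68 and 2.77 CPM in the Tim4KO libraries, so that WT ID8 3 was below Tim4KO. The log2 change without WT ID8 3 was -2.58 ± 0.29 (adjusted p = 6.67e-06). Nfil3, which opposes DBP at shared sites, had 57, 70.3 and 48.9 CPM (WT) and 34.7, 37.9 and 33.2 CPM (Tim4KO), with no overlap, and missed the threshold (adjusted p = 0.0605 without WT ID8 3).

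In naive cells, Dbp (log2 change 4.93, adjusted p = 0.00616) and Tef (2.67, adjusted p = 0.0209) were also called higher in Tim4KO, among 7 genes called of 15943 (0.0439%; 0.0251% higher and 0.0188% lower). Dbp was at 0.542 to 0.838 CPM in WT naive and 8.94 to 41.5 CPM in Tim4KO naive, and the median naive log2 change of the 11 genes was 1.82. The naive calls rested on each wild-type library: with any one of WT naive 1 to 3 left out, 1 gene was called.

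**Figure D4:**
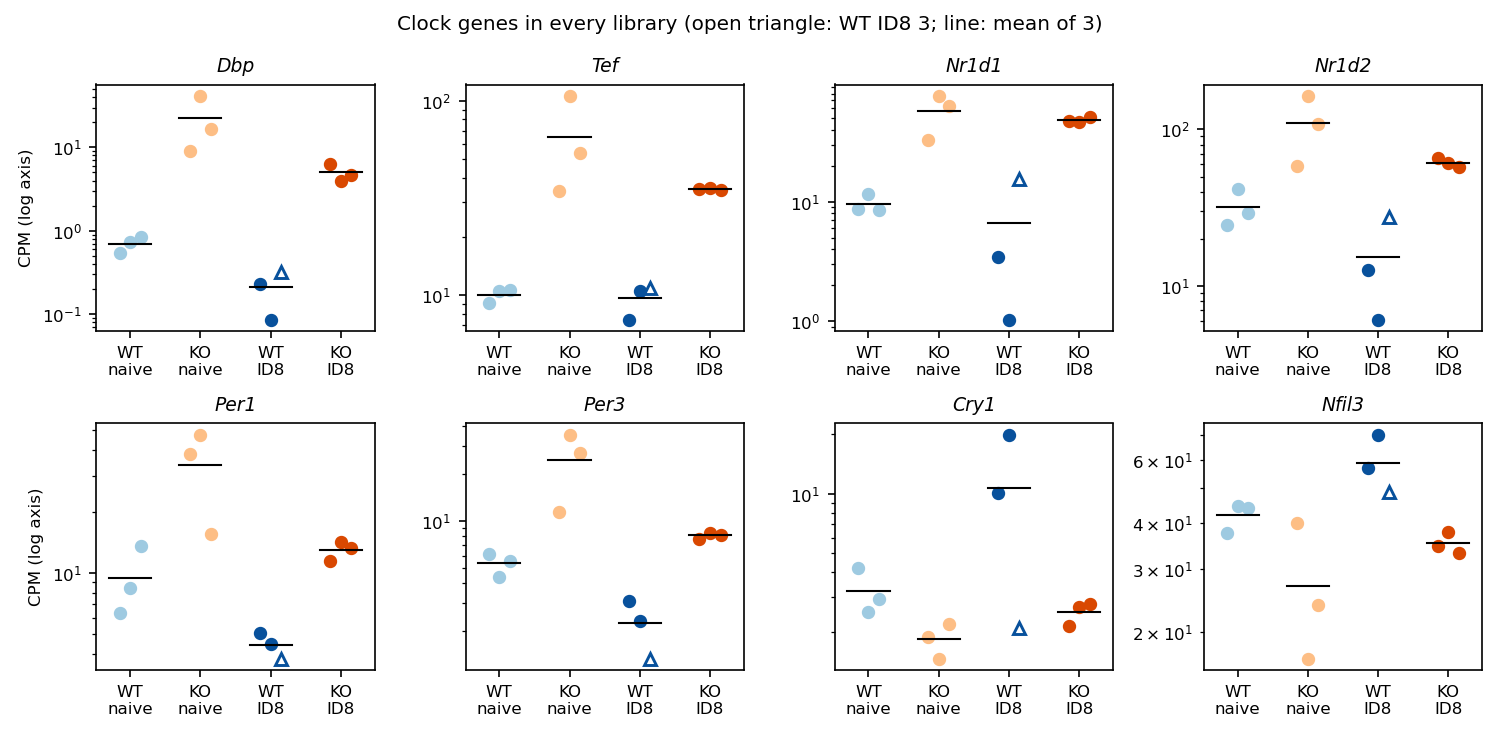
CPM (log axis) of 8 clock genes in each of the 12 libraries by group (points, libraries; open triangle, WT ID8 3; line, mean of 3). Tef is at 7.48 to 10.9 CPM in WT ID8 and 34.9 to 35.4 CPM in Tim4KO ID8, while Cry1 in WT ID8 3, at 2.1 CPM, is below the Tim4KO ID8 libraries.

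CLOCK and BMAL1 bind the E-box CACGTG, which reads the same on both strands. Within the 250 bases before the start it was present in 4 of the 10 Dbp-phase genes with a RefSeq entry (40%), beside 6.86% of all genes with an entry and 9.31% of the tested ones, and in 1 of the 5 genes of the opposite phase. The promoters of Tef and Cry1, 1 of each phase, are shown on the gene's strand with the E-box in capitals. Tef is read from chr15:81802423-81802672 on the plus strand and Cry1 from chr10:85185055-85185304 on the minus strand (GRCm38.p6).
Tef: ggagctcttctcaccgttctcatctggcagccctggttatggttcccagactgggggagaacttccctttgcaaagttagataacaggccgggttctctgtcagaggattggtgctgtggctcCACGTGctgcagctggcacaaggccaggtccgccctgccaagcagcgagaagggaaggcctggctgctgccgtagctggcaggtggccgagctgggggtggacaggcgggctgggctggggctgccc
Cry1: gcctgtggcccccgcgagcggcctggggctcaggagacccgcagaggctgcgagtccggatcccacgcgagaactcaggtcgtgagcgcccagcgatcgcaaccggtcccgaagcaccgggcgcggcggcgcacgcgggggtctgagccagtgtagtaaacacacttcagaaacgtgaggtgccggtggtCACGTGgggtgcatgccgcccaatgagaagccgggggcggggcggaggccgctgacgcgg

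Among engulfment genes, Timd4 was the one called with all libraries. Of 23 tested phosphatidylserine receptors and bridging molecules, Timd4 was called lower and Itgb3 higher without WT ID8 3, where 5.74% of all genes were called. Itgb3, the integrin beta chain that pairs with Itgav to bind MFGE8-coated cells, was at 3.91, 3.44 and 9.35 CPM in the WT libraries and at 12.7, 10.4 and 12.3 CPM in the Tim4KO libraries, with no overlap. The log2 change was 1.69 ± 0.22 without WT ID8 3 (adjusted p = 3.09e-05) and 1.03 ± 0.29 with it (adjusted p = 0.21). Mertk, a receptor kinase for coated dying cells, lay between 129.6 and 134 CPM, with a log2 difference of -0.01 ± 0.15 without WT ID8 3 (adjusted p = 0.981). Axl, a related kinase, ranged over 34.3 to 145 CPM in WT and 39.2 to 89.8 CPM in Tim4KO, and the groups overlapped.

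Of 34 tested genes of engulfment signalling and actin, Coro1a, Dock2 and Lsp1 were called higher and Ezr lower without WT ID8 3. The median log2 change was -0.04, and 5.74% of all genes were called in that fit. Ezr, which encodes ezrin, a linker between membrane and actin, was at 243, 251 and 204 CPM in the WT libraries and at 146, 128 and 141 CPM in the Tim4KO libraries, with no overlap and a log2 change of -0.75 ± 0.15 with all libraries (adjusted p = 0.0839) and -0.83 ± 0.16 without WT ID8 3 (adjusted p = 0.00231). Dock2, an activator of RAC, did not overlap either, at 383 to 543 CPM in WT and 551 to 606 CPM in Tim4KO, but Dock2 and Coro1a were not called in any fit with a further library left out. Lsp1 and Coro1a, both actin-binding, were higher in WT ID8 3 (546 and 51.2 CPM) than in any Tim4KO library.

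Of 40 tested phagosome and lysosome genes, Ctsc, Cd63 and Slc15a3 were called lower and Map1lc3a higher without WT ID8 3, beside 5.74% of all genes. With all libraries 0 were called. Ctsc, cathepsin C, was at 1037, 1813 and 921 CPM in the WT libraries and at 804, 916 and 769 CPM in the Tim4KO libraries. The log2 change was -0.60 ± 0.20 with all libraries (adjusted p = 0.284) and -0.79 ± 0.18 without WT ID8 3 (adjusted p = 0.00977), and 921 CPM in WT ID8 3 lay just above the highest Tim4KO value. For Cd63, WT ID8 3 was below every Tim4KO library (229 CPM beside 242 to 301 CPM), and for Slc15a3 and Map1lc3a it was within their range. Over the 6 libraries, 8 of the 40 were lower with no overlap and 3 higher, beside 8.56% and 7.06% of all genes, and the list's median was 0.03 without WT ID8 3.

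Of 33 tested genes of class I antigen processing, on which cross-presentation draws, 0 were called with all libraries. Sort1 and Wdfy4 were called higher and Psme3 lower without WT ID8 3, beside 5.74% of all genes called, with a median of -0.04. The class I heavy chain H2-K1 was at 1068, 1390 and 1586 CPM in the WT libraries and at 1554, 1347 and 1622 CPM in the Tim4KO libraries, and the peptide transporter gene Tap1 had 64.7, 98.3 and 99.2 CPM (WT) and 68.4, 84.4 and 71.9 CPM (Tim4KO). Both overlapped between groups. For Sort1, WT ID8 3 was above every Tim4KO library (111 CPM beside 89.2 to 94.1 CPM), and for Psme3 it was within their range. Wdfy4, which dendritic cells need for cross-presentation, was at 71.1, 74.6 and 112 CPM in the WT libraries and at 112, 109.9 and 116 CPM in the Tim4KO libraries. WT ID8 3 was among the Tim4KO libraries, and the log2 change was 0.63 ± 0.15 without it (adjusted p = 0.013) and 0.39 ± 0.15 with it (adjusted p = 0.344).

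Of 15 tested class II and costimulatory genes, Cd74, H2-DMa and H2-DMb1 were called higher without WT ID8 3 and Cd274, which encodes PD-L1, lower. The share of all genes called in that fit was 5.74%, and 0 of the 15 were called with all libraries. H2-DMa, which helps load peptide on class II, was at 27.7, 37.3 and 65.8 CPM in the WT libraries and at 67, 83.2 and 62.9 CPM in the Tim4KO libraries, a log2 change of 1.12 ± 0.21 without WT ID8 3 (adjusted p = 0.00362). H2-DMa shares exonic bases with Brd2 on the opposite strand. Cd74, the invariant chain, was highest in WT ID8 3, with 44.4, 63.6 and 232 CPM (WT) and 146, 185 and 151 CPM (Tim4KO). For H2-DMa, H2-DMb1 and Cd274, WT ID8 3 was within the Tim4KO range. With a further library left out, Cd74 was called in 0 of 5 fits (adjusted p = 0.106 to 0.18) and Cd274 in 1, and both were lost with the background covariate, an alternative chosen after seeing the data. The sort had taken cells low for MHC class II. Markers of small peritoneal macrophages and dendritic cells, which carry class II, summed to 80.9, 54.4 and 119.3 CPM (WT) and 91.5, 72.4 and 78.8 CPM (Tim4KO), with 0 of the 9 tested called, and their part in the class II values was not tested.

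Genes that handle lipid were called in both directions. Of 22 tested, Apoe, Rxrb and Ucp2 were called higher and Lpl and Nr1h3 lower without WT ID8 3, where 5.74% of all genes were called. With all libraries 0 of the 22 were called. Apoe, which carries cholesterol out of macrophages, was at 6463, 7023 and 4356 CPM in the WT libraries and at 10527, 9371 and 10315 CPM in the Tim4KO libraries. All Tim4KO libraries were above all WT libraries, and the log2 change was 0.76 ± 0.16 with all libraries (adjusted p = 0.108) and 0.58 ± 0.16 without WT ID8 3 (adjusted p = 0.0271). Nr1h3, the sterol sensor LXR alpha, had 15.2, 33 and 11.8 CPM (WT) and 10.4, 8.03 and 9.51 CPM (Tim4KO), so that WT ID8 2 was well above the other WT libraries. The log2 change of Nr1h3 was -1.38 without WT ID8 3 (edgeR adjusted p = 0.00497). It ranged from -1.87 to -0.64 when a further challenged library was left out. For Lpl, a lipase, WT ID8 3 was below every Tim4KO library. Of 25 tested cholesterol synthesis genes, Insig1, the feedback brake on the pathway, was called higher without WT ID8 3, with 33.6, 37.7 and 45.2 CPM (WT) and 58.4, 52.4 and 53.3 CPM (Tim4KO). In that list, 12 genes were higher in Tim4KO with no overlap and 1 lower, beside 7.06% and 8.56% of all genes, and the median log2 change was 0.29 with all libraries.

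Glycolysis and respiration genes had 2 calls each. Of 21 tested glycolysis genes, Hk2, hexokinase 2, and Hif1a, the hypoxia factor that drives the pathway, were called lower without WT ID8 3, and 7 were lower over the 6 libraries with no overlap, beside 5.74% of all genes called and 8.56% lower with no overlap. Hk2 was called in 0 of 5 fits with a further library left out (adjusted p = 0.0649 to 0.413). Hif1a was at 179.7, 211 and 111 CPM in the WT libraries and at 109, 113 and 107 CPM in the Tim4KO libraries, with WT ID8 3 within the Tim4KO range. Of 34 oxidative phosphorylation genes, Cycs and Ndufs3 were called lower and 0 higher, and for Ndufs3 WT ID8 3 was below every Tim4KO library. Of 31 genes of large peritoneal macrophage identity, Arg1, Serpinb2 and Timd4 were called lower without WT ID8 3 and 0 higher, and the median was 0.09.

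Stress and survival genes outside the chaperones were called in both directions without WT ID8 3. Over all genes, 2.24% were called higher in that fit and 3.49% lower. Of 22 unfolded protein response genes, Dnajb9 and Herpud1, both of endoplasmic reticulum protein disposal, were called higher and Creld2 lower. Dnajb9 (adjusted p = 0.0703 to 0.338) and Creld2 (adjusted p = 0.116 to 0.363) were lost with each further library left out, and WT ID8 3 was within the Tim4KO range for Creld2. Herpud1 was at 51.7, 79.7 and 89.5 CPM in the WT libraries and at 122, 135 and 114 CPM in the Tim4KO libraries, with no overlap. Of 16 BCL2-family genes, the survival genes Bcl2a1a and Bcl2l1 were called lower and the death-promoting genes Bbc3 and Bmf higher, but WT ID8 3 was within the Tim4KO range for Bcl2l1, Bbc3 and Bmf (47.9, 13.3 and 2.01 CPM). Of 26 genes of ID proteins and BMP or TGF-beta signalling, Id1 and the BMP receptor gene Bmpr1a were called lower and the coreceptor gene Eng higher, although Eng in WT ID8 3 (70.7 CPM) was above every Tim4KO library (55.8 to 67.1 CPM). Bmpr1a had 31.9, 36.9 and 27.1 CPM (WT) and 24.4, 22.6 and 21.5 CPM (Tim4KO) (adjusted p = 0.0459). Of 19 acute-phase genes, Lcn2 and Saa2 were called lower and Pglyrp1 higher. WT ID8 3 was within the Tim4KO range for Saa2 and above it for Pglyrp1 (54 CPM beside 9.78 to 12.5 CPM).

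The direction of the cell-cycle genes depended on WT ID8 3. That library was singled out for its high level of these genes, so this dependence followed from the choice. The median log2 change of 40 S phase and mitosis genes was -1.64 with all libraries and 0.48 without WT ID8 3. With that library left out, 2.24% of all genes were called higher in Tim4KO and 3.49% lower. Of the 40, Cdc6, E2f1 and E2f8 were called higher and 0 lower. Each of these 3 genes was higher still in WT ID8 3. E2f8, a repressor of E2F targets, was at 2.07, 1.72 and 42.3 CPM in the WT libraries and at 5.3, 6.55 and 5.3 CPM in the Tim4KO libraries.

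**Figure D5:**
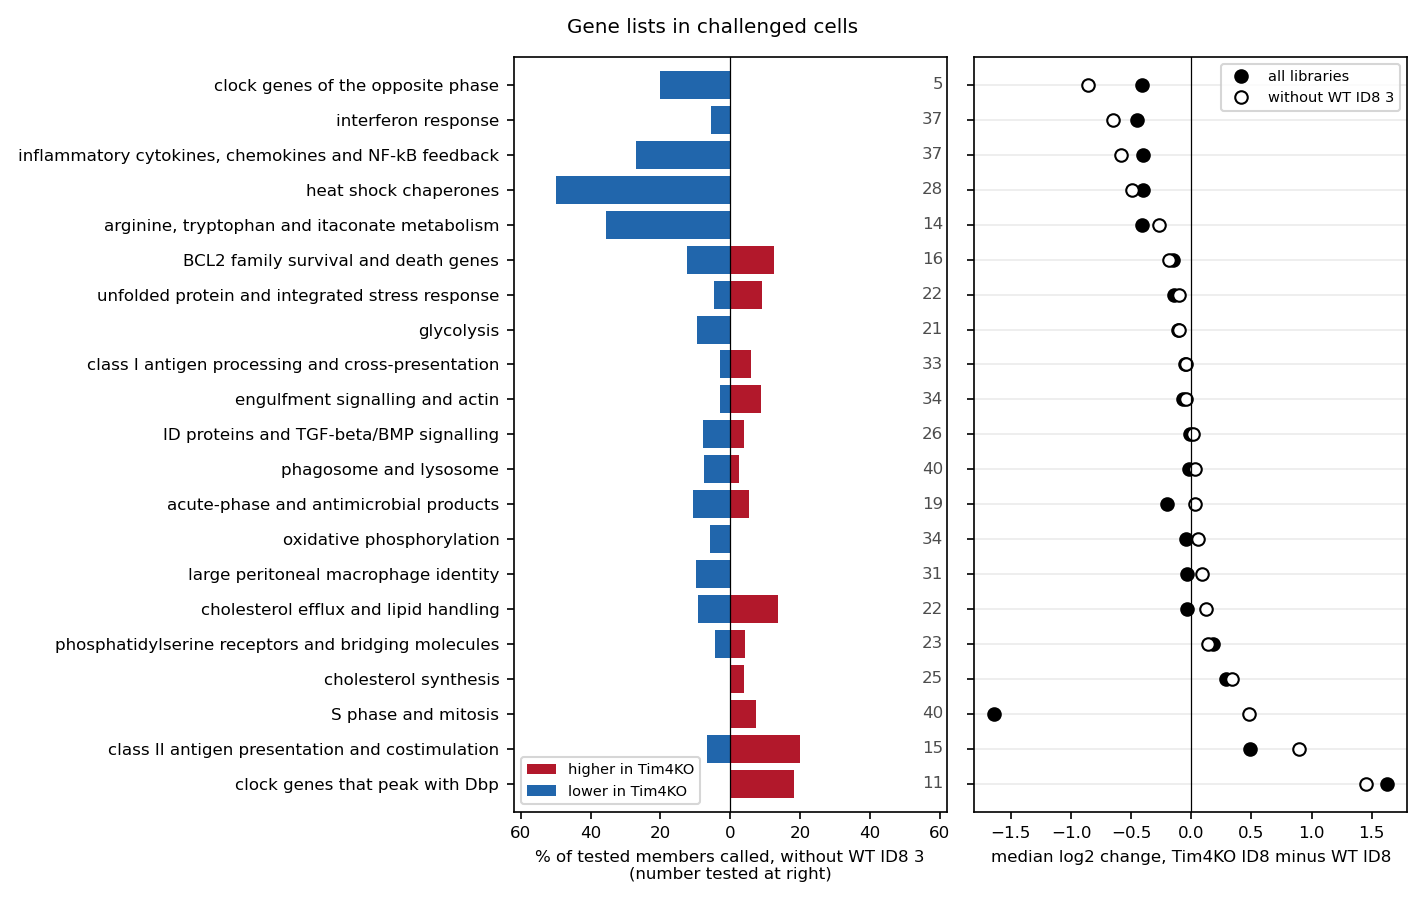
Left: share of tested members of each of 21 gene lists that was called higher or lower in Tim4KO ID8 without WT ID8 3. Right: median log2 change of each list with all libraries and without WT ID8 3. Heat shock chaperones have 14 of 28 members called lower, beside 3.49% of all genes. The S phase and mitosis median moves from -1.64 to 0.48 when WT ID8 3 is left out. WT ID8 3 was singled out for its high level of S phase and mitosis transcripts.

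Several of the largest changes that kept WT ID8 3 on the wild-type side were outside the lists. Higher in Tim4KO with no overlap were, among others, Adgrf5, Creb3l2, Engase, Fam129a, Padi2, Rps3a2 and Sult1a1, besides Nr1d1 and Nr1d2. Engase, a cytosolic enzyme that removes N-glycans, was at 57.4, 80.1 and 125 CPM in the WT libraries and at 220, 179 and 217 CPM in the Tim4KO libraries, a log2 change of 1.22 ± 0.25 with all libraries (adjusted p = 0.0966) and 1.58 ± 0.21 without WT ID8 3 (adjusted p = 0.000144). Creb3l2, a membrane-tethered transcription factor of the secretory pathway, was nearly level within each group, with 17.1, 18.3 and 19.6 CPM (WT) and 39.4, 36.8 and 37.4 CPM (Tim4KO). Its change was 1.04 ± 0.18 (adjusted p = 0.0568) and 1.10 ± 0.20 without WT ID8 3 (adjusted p = 0.00179). Rps3a2 had 6.91, 7.56 and 7.07 CPM (WT) and 16.3, 31.7 and 21.6 CPM (Tim4KO), and was also called in naive cells (log2 change 1.94, adjusted p = 0.0395), but it is nearly identical to Rps3a1, so reads may be split between them.

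Lower with no overlap was Igf2bp2, an RNA-binding protein gene, at 21.2, 29.8 and 7.03 CPM in the WT libraries and at 6.46, 6.55 and 5.3 CPM in the Tim4KO libraries. WT ID8 3 was above the highest Tim4KO library by less than 1 CPM, and the log2 change was -1.66 ± 0.44 with all libraries (adjusted p = 0.209) and -2.07 ± 0.26 without WT ID8 3 (adjusted p = 3.98e-05). Mturn and Myh7 were among the largest increases without WT ID8 3 (2.12 and 1.94), but that library overlapped Tim4KO, at 4.84 and 10.8 CPM. Fam129a, a stress-responsive gene also called Niban, had 4.49, 3.18 and 11.8 CPM (WT) and 16.1, 12 and 15.3 CPM (Tim4KO).

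The genotype differences of challenged cells were set beside those of naive cells. Of the 997 genes called without WT ID8 3, 50.4% had the same sign in naive cells, beside 49.7% of all tested genes, and 2 were also called there. The share was 60% for the genes called higher and 44.2% for those called lower. Of the 997, those with a naive unadjusted p under 0.05 were 57 with the same sign and 11 with the opposite sign, beside 582 and 417 over all tested genes. The test of the difference between conditions called 0 genes of 15943 with all libraries (0% called; edgeR, lowest adjusted p = 0.0888; 1186 genes with an unadjusted p under 0.05; 11 genes by DESeq2). Without WT ID8 3 it called 368 of 17374 genes (2.12%; 0.794% higher and 1.32% lower), of which 297 were among the 997. For Hsp90aa1 the log2 genotype difference was 0.08 in naive cells and -1.62 in challenged cells without WT ID8 3, and the difference between them was -1.70 ± 0.20 (adjusted p = 5.49e-05). With all libraries that difference was -1.46 (adjusted p = 0.432).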

How the data were processed

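RNA from sorted macrophages was extracted with RNeasy micro columns and made into libraries with a SMART-Seq mRNA LP kit, per the labels' protocols. The authors deposited 1 table of counts per gene for the 12 libraries, with 57010 genes, of which 52029 had a name. The submitters' processing notes name STAR 2.5, FastQC and the builds mm10 and GRCm39. The counting program, annotation release, strand setting and treatment of reads with several matches were not given in the sources used here. Besides Dbp, Nr1d1 and H2-DMa, other named genes share exonic bases with a neighbour. Examples are Slc15a3 with Tmem132a on the opposite strand and Serpinb2 with Serpinb10 on the same strand. All columns matched a library by name.

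Testing of the deposited counts used edgeR 4.0.16 under R 4.3.3 (TMM, filterByExpr with a minimum count of 10, quasi-likelihood test, Benjamini-Hochberg adjustment, threshold 0.05). One model held the 4 groups, with 8 residual degrees of freedom, or 7 without WT ID8 3. A library left out leaves an arm of 2, and leaving out a further WT ID8 library beside WT ID8 3 leaves an arm of 1, which is assumed to vary like the other groups. "Called" means past the threshold, and "no overlap" means that all libraries of a group lay beyond all of the other. With 3 libraries against 3, an exact permutation test cannot go below 0.1. Alternatives were DESeq2 1.42.0 and its size factors, limma 3.58.1 voom, other filters and scalings, a replicate block and leaving out each library. Promoters were searched with Python 3.11.15 and pandas 2.3.3. The fitting code was tested on simulated data. Floors cover counting error only, and without molecular identifiers reads are not independent molecules.

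Named genes were those called with all libraries. Added to them, among genes called without WT ID8 3 with a mean of at least 50 normalized counts, were the 10 largest changes each way that did not overlap over the 6 libraries, and the 6 largest each way that did not overlap over the 5 without WT ID8 3. Up to 4 members of smallest p were named from each of 21 pathway lists. Other members of these and of 9 marker lists, such as Mertk, Tef, H2-K1, Tap1 and Hspa8, were named after their values were seen. Not every gene that the rule selects is reported here. The members and lists, and WT ID8 3 as the library to leave out, were chosen with earlier results of these data known.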

Additional observations from a re-analysis of the deposited data

Results flagged for a closer look

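For 29 of the 98 named genes the genotype difference in challenged cells differed from that in naive cells when WT ID8 3 was left out (edgeR interaction term, adjusted p under 0.05 over 17374 genes). With all libraries 0 of them passed in the same edgeR fit, with adjusted p from 0.0888 to 0.899, so in that fit every call here depends on leaving that library out. Some values were of similar size with it, such as -1.61 for Id1, -1.93 for Timd4 and -1.46 for Hsp90aa1. With all libraries this term called 11 genes by DESeq2, 73 without a filter on low counts and 2 with the background covariate. Whether these included any of the 29 was not examined. Of all genes, 2.12% were called by this term without WT ID8 3. Most named genes had been picked by their genotype difference in the same challenged libraries, which is part of the term. A higher share among them was therefore built in. Each value is the log2 genotype difference in challenged cells minus that in naive cells, and a negative value means that Tim4KO was lower relative to WT in challenged than in naive cells. Timd4 itself had -2.10, with 1.38 to 1.92 CPM in Tim4KO ID8 and 7.21 to 7.71 CPM in Tim4KO naive. Among heat shock chaperones the values were Chordc1 (-1.32), Hsp90aa1 (-1.70), Hsph1 (-1.92) and Stip1 (-1.16). Among inflammatory, arginine and itaconate genes they were Acod1 (-2.43), Il1rn (-2.01), Ptges (-1.62) and Slc7a2 (-1.11). The other negative values were Bcl2l1 (-1.03), Cry1 (-1.85), Ctsc (-1.04), Hk2 (-0.93), Id1 (-1.70), Igf2bp2 (-1.83), Nr1h3 (-1.55) and Slc15a3 (-1.18). The positive values were Coro1a (1.37), E2f8 (1.96), Engase (1.21), Fam129a (1.75), Itgb3 (1.35), Lsp1 (1.08), Map1lc3a (1.48), Mturn (2.03), Pglyrp1 (1.39), Rxrb (0.77), Sort1 (1.23) and Sult1a1 (1.32). Of these, Coro1a, E2f8, Lsp1, Pglyrp1 and Sort1 were higher in WT ID8 3 than in any Tim4KO ID8 library. With all libraries the sign was the opposite for E2f8 (-1.10) and Pglyrp1 (-0.59). The part of the cell-cycle transcripts or low background of WT ID8 3 in these values was not tested.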

How the results depend on the processing

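The comparison of challenged cells with all libraries gave 9 genes. It gave 265 by DESeq2, 264 without a filter on low counts, 197 with the background level as a covariate and 14 with a replicate block, and all 9 were among the calls in each of these. With only the 2 groups fitted it gave 8, of which 4 were among the 9, and limma voom gave 10, of which 7 were. Leaving out 1 challenged library gave 1 to 997. Without WT ID8 3 it gave 997, then 1557 with genes of at least 50 mean counts and 2141 with only the 2 groups fitted, and 168 to 909 with a further library left out. The naive comparison gave 7, and 52 by DESeq2, 59 without a filter, 3 by limma voom, 2 with only the 2 groups, 3 with the block and 1 to 10 with a library left out. The interaction gave 0, and 2 with the background covariate, 11 by DESeq2, 73 without a filter and 0 to 368 with a library left out. Without WT ID8 3 it gave 368, then 767 by DESeq2, 714 with at least 50 mean counts and 64 to 604 with a further library left out, and its share of higher calls was 37.5%, or 58.5% with upper-quartile scaling. The cause of these differences was not tested. In the comparison of challenged cells, with or without WT ID8 3, 0 of the alternatives reversed a named gene that was called. Reversals in the naive comparison and the interaction were not counted. The sign with all libraries was opposite to that without WT ID8 3 for 6 of the 98 named genes (Axl, Cdc6, Coro1a, E2f8, Mcm10 and Pglyrp1). Among these, E2f8 had -1.47 and 1.59. The background covariate and the 12-library gene filter were chosen after seeing the data.

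The deviations of same-numbered WT ID8 and Tim4KO ID8 libraries from their group means correlated at -0.50, 0.03 and -0.31. With 3 libraries per group such deviations are tied to each other. These values therefore cannot decide whether the replicate numbers pair the libraries. With the replicate block, the comparison without WT ID8 3 gave 757 genes and its interaction 370. Depth limits the low genes, since 3 counts correspond to 0.137 to 0.345 CPM in the challenged libraries.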

Other observations

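Outside the lists, further genes were among the 101 called under each of the 15 alternatives to the comparison without WT ID8 3; the ones named here were chosen after their values were seen. Some genes of surface proteins were lower in Tim4KO. Cd55, a brake on complement, was at 17.1, 22.2 and 12 CPM in WT ID8 1 to 3, beside 5.69, 4.89 and 6.51 CPM in Tim4KO ID8 1 to 3, with no overlap (log2 change -1.78 ± 0.28 without WT ID8 3, edgeR adjusted p = 0.000661, and -1.57 with it, adjusted p = 0.0839). Clec4e, the Mincle receptor for microbial glycolipids and dying cells, had 403, 446 and 174 CPM (WT) and 164, 157 and 163 CPM (Tim4KO) (-1.39, adjusted p = 4.34e-06). Cd44, a hyaluronan receptor, had 1080, 963 and 576 CPM (WT) and 526, 421 and 538 CPM (Tim4KO) (-1.04, adjusted p = 0.000336). In the last 2 genes WT ID8 3 lay above Tim4KO by a small margin.

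Some genes of detoxification and lipid transport were higher in Tim4KO. Gstm1, a glutathione transferase, had 24.9, 20.7 and 35.3 CPM (WT) and 46, 41.9 and 44.3 CPM (Tim4KO) (0.96, adjusted p = 0.000956), with no overlap. Ephx1, an epoxide hydrolase, had 19.1, 19.8 and 57 CPM (WT) and 72.6, 50.8 and 73 CPM (Tim4KO) (1.76, adjusted p = 2.32e-05), with WT ID8 3 within the Tim4KO range. Abca7, a lipid transporter related to ABCA1, had 32.2, 26 and 53.9 CPM (WT) and 59.1, 54.2 and 57.9 CPM (Tim4KO) (0.98, adjusted p = 0.000661), with WT ID8 3 just below the lowest Tim4KO library.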
